A study of Mus musculus with 8 samples.

Results

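The erythroid miRNAs miR-451a, miR-144 and miR-486 are the miRNAs by which red blood cell RNA is usually recognised in a body fluid, and their signals were followed here on 8 arrays of mouse amniotic fluid exosomes. They were chosen by name, not by a cut on their values, though with earlier results of these data known. Of 6 names looked for (mmu-miR-451a, mmu-miR-144-3p, mmu-miR-144-5p, mmu-miR-486a-5p, mmu-miR-486b-5p and mmu-miR-486a-3p), 5 were among the 1881 miRNAs of the array. The species prefix mmu is left out from here on. The name miR-486b-5p has no probe of its own, and the miR-486a-5p probes are annotated in the files also with its older name, miR-3107-5p, so their signal cannot be split between both genes. Each of the 5 miRNAs was read by 2 probes, 10 of the 4415 miRNA probes in all, and each probe was printed as 15 spots. Of the 5, 3 were bright enough to be tested between the groups (miR-451a, miR-486a-5p and miR-144-3p), and miR-144-5p and miR-486a-3p are described by their values alone.

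The 4 LPS arrays carry exosomal RNA from amniotic fluid of preterm births that were brought on with lipopolysaccharide (LPS, a bacterial cell wall component that sets off inflammation). On day 14 of pregnancy 100 μg/kg was injected into the peritoneum, and birth followed about 48 h later. The 4 cesarean arrays carry exosomal RNA from amniotic fluid taken at cesarean section, and no label tells whether their mothers had been injected. All samples are labelled day 17 of pregnancy, which does not match an injection on day 14 with birth 48 h later, and strain, pooling and separate animals are not given, so the p-values measure the spread between these samples. Exosomes, small vesicles that cells release, were isolated by size-exclusion chromatography. In such bulk material a higher number of red cell vesicles and more of a miRNA in each cannot be told apart.

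Red blood cells build up a small set of miRNAs while they mature, and these persist in the cell after it has lost its nucleus. miR-451a and miR-144 are cut from a common transcript that the erythroid factor GATA1 switches on. miR-451a is made without Dicer: the slicer Ago2 cuts its short hairpin, and the miRNA runs from the stem into the loop. It restrains the AMPK pathway regulator Cab39 and the adaptor YWHAZ, and with miR-144 it protects red cells from oxidative stress. miR-486 lies within Ank1, the gene of the red cell membrane protein ankyrin. miR-486 is also made in striated muscle from the muscle promoter of the same gene. In plasma, miR-451a set against miR-23a, a miRNA that red cells hold little of, is used as a measure of haemolysis.

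The mature sequences of the chromosome 11 members are shown because the probes pair with them over nearly their whole length. They are given 5′ to 3′ from RefSeq (GRCm38.p6, plus strand), and capitals mark the seed, bases 2 to 8. miR-451a lies at chr11:78073186-78073207, miR-144-3p at chr11:78073047-78073066 and miR-144-5p at chr11:78073010-78073032.
miR-451a: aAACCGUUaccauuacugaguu
miR-144-3p: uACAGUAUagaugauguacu
miR-144-5p: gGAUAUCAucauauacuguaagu
The seeds of these 3 all differ, and 0 other mature miRNA names of the RefSeq mouse table carry any of them.

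The hairpins show how differently the neighbours are built. The Mir144 hairpin (chr11:78073005-78073070) and the Mir451a hairpin (chr11:78073170-78073241) lie 99 bases apart on the same strand, and neither lies within the span of Flot2 or of Eral1. Capitals mark the mature miRNAs.
Mir144: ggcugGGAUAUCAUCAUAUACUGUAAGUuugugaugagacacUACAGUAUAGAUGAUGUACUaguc
Mir451a: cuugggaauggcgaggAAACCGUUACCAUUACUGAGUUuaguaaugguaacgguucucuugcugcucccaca
Mir144 yields a miRNA from each arm, at positions 6 to 28 and 43 to 62 of the hairpin. The single miRNA of Mir451a takes up positions 17 to 38. Mir451b is annotated on the opposite strand over the same span, and its hairpin is the exact reverse complement.

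The array probes are DNA and complementary to the miRNA. The longer probe of each pair adds 1 base, in capitals, that pairs with the next base toward the 5′ end of the miRNA. They are shown because, for the dimmest members, the longer probe was measured on arrays where the shorter one was not.
miR-451a, shorter: aactcagtaatggtaacggtt
miR-451a, longer: aactcagtaatggtaacggttT
miR-144-3p, shorter: agtacatcatctatactgt
miR-144-3p, longer: agtacatcatctatactgtA
miR-144-5p, shorter: acttacagtatatgatgatatc
miR-144-5p, longer: acttacagtatatgatgatatcC
miR-486a-5p, shorter: ctcggggcagctc
miR-486a-5p, longer: ctcggggcagctcA
miR-486a-3p, shorter: atcctgtactgagctg
miR-486a-3p, longer: atcctgtactgagctgC
The longer miR-451a and miR-144 probes pair with the whole miRNA, bases 1 to 22 of miR-451a and 1 to 20 of miR-144-3p, while the miR-486a-5p probes cover 13 and 14 bases. On mm9, the build the file headers name, the longer miR-451a probe is placed at chr11:77886689-77886709 and the longer miR-144-3p probe at chr11:77886550-77886568. The files place the longer miR-486a-5p probe at chr8:24253067-24253080 and also at chr8:23142595-23142608. The second of these positions falls inside Mir486 as GRCm38.p6 has it (chr8:23142555-23142682, within the span of Ank1), and the first does not. Mir3107, the gene of miR-486b, lies inside the span of Mir486.

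miR-451a was the brightest member and number 3 of the 470 miRNAs tested by its mean log2 signal over both groups, although signals of different probes do not rank miRNAs by amount. Signals were scaled between arrays and put on the log2 scale, where 1 unit is a 2-fold difference. The longer miR-451a probe read 14.90, 13.76, 14.56 and 14.13 on LPS arrays 1 to 4 and 13.09, 13.32, 13.06 and 13.92 on cesarean arrays 1 to 4. Of the LPS arrays, 3 lay above every cesarean array, and LPS array 2 lay below cesarean array 4, so the groups overlapped. The mean was 14.34 ± 0.50 with LPS and 13.35 ± 0.40 at cesarean section (SD, n = 4 each). The log2 difference was 0.99 ± 0.31 (SE; 95% confidence interval 0.30 to 1.68), a 1.98-fold difference that did not pass limma's test after Benjamini-Hochberg adjustment over all miRNAs (adjusted p = 0.0814). The shorter probe gave 0.97 ± 0.32 (adjusted p = 0.0934 over the 887 probes tested). Spots of the longer probe varied by 1.33% to 4.47% of their mean within an array, far less than the arrays differed from one another.

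miR-144-3p, cut from the same transcript, was far dimmer and was the tested member whose groups did not overlap. The scaled linear signal of its longer probe was 26.8, 34.5, 28.7 and 29.2 on LPS arrays 1 to 4 and 4.73, 5.42, 2.46 and 4.79 on cesarean arrays 1 to 4. All 4 LPS arrays were well above background, by the scanner software's test of each spot, and 0 of the 4 cesarean arrays were. The shorter probe showed the same split, with 26.2, 31.1, 26.6 and 19.7 on LPS arrays and 3.62, 4.03, 1.80 and 2.73 on cesarean arrays. Because the cesarean level was below what the arrays measure, the fold is a lower bound: with LPS it was at least 2.72-fold higher by the longer probe and at least 2.35-fold higher by the shorter one, each taken against the lowest signal well above background on the cesarean arrays (n = 4 each). It passed limma's test (adjusted p = 0.0175), with measured means of 4.89 ± 0.16 on LPS arrays and 3.75 on cesarean arrays (log2, n = 4 each). The cesarean mean is the floor of 3.75 to which lower signals were raised, so the spread there is 0 by construction. miR-144-3p entered the test through the LPS arrays alone, so a difference was built into its selection.

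The call for miR-144-3p was not stable. The adjusted p was 0.366 with a floor 2 times as high (log2 difference 0.14), 0.204 with normexp background correction (0.56), 0.254 without scaling between arrays, 0.276 after scaling to spike-in probes and 0.124 when slide columns were blocked, and it was 0.0566 without LPS array 2 and 0.0625, 0.0577 and 0.0674 without cesarean arrays 1, 2 and 3 (over all alternatives, from 0.00043 to 0.366). In the authors' deposited table, which does not use this floor, the log2 values of miR-144-3p were 5.02, 4.79, 4.77 and 4.40 with LPS and 2.48, 2.56, 2.24 and 2.33 at cesarean section, and these groups did not overlap either.

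miR-144-5p, the other arm of the Mir144 hairpin, was read on some LPS arrays and on no cesarean array. Its longer probe gave scaled linear signals of 8.65, 36.8, 28.0 and 10.3 on LPS arrays 1 to 4 and 5.22, 2.66, 2.17 and 2.36 on cesarean arrays 1 to 4. LPS arrays 2 and 3 were well above background, and LPS arrays 1 and 4 were not. Each of the 4 LPS values exceeded every cesarean value. Those of LPS arrays 1 and 4 and of all cesarean arrays lay below the floor of 13.5, so their order is not read as a difference. The shorter probe, without the base that pairs with the first base of the miRNA, was not well above background on any of the 8 arrays, with a highest signal of 9.90 on LPS array 2. miR-144-5p fell short of the 3 arrays of a group that the test required and was not tested. miR-451b, the antisense partner of miR-451a, was well above background on 0 of 8 arrays by either probe.

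miR-486a-5p, the arm of the Ank1 miRNA that accumulates in red cells, was bright on every array. Its longer probe read 8.48, 7.47, 8.55 and 8.36 on LPS arrays 1 to 4 and 6.94, 7.54, 6.94 and 8.13 on cesarean arrays 1 to 4 (log2). LPS array 2 stood apart from the other 3 and below 2 of the cesarean arrays, while cesarean array 4 was the highest of its group. It averaged 8.22 ± 0.50 with LPS and 7.39 ± 0.57 at cesarean section (SD, n = 4 each). The log2 difference of 0.83 ± 0.35 (SE; 95% confidence interval 0.05 to 1.60) did not pass limma's test (adjusted p = 0.171), and the shorter probe gave 0.86 ± 0.33 (adjusted p = 0.154 over all probes).

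miR-486a-3p, the opposite arm, was near the limit of the array. The scaled linear signals of its longer probe were 17.0, 6.26, 14.9 and 7.59 on LPS arrays 1 to 4 and 3.51, 5.47, 3.09 and 8.50 on cesarean arrays 1 to 4. Only LPS arrays 1 and 3 were well above background, and the shorter probe was so on 0 of 8 arrays. The highest cesarean value was again that of array 4, and LPS array 2 was again the lowest of its group. The longer probe of miR-486b-3p, which is the longer miR-486a-3p probe without its first base, was well above background on LPS array 3 alone and was no member here.

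**Figure D1:**
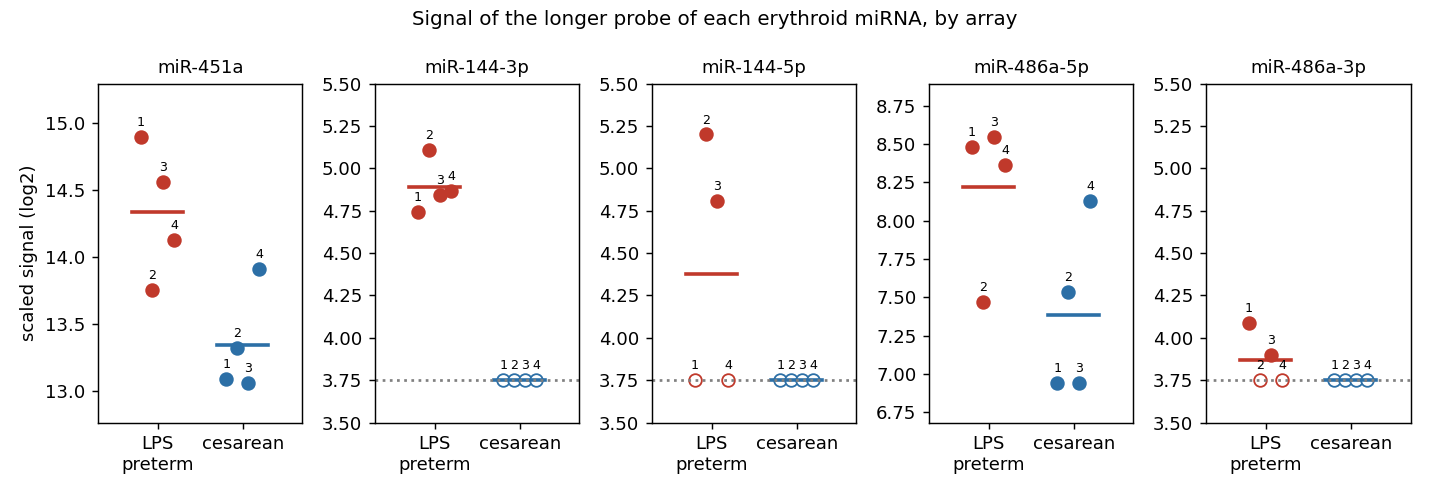
Scaled log2 signal (y axis) of the longer probe of each erythroid miRNA on the LPS preterm arrays (left, red) and the cesarean arrays (right, blue), 4 arrays each, numbered by replicate, with horizontal lines at the group means and a separate y axis for miR-451a and for miR-486a-5p. Filled points are well above background, open points are not, and the dotted line is the floor of 3.75: miR-144-3p is filled on all 4 LPS arrays and open on all 4 cesarean arrays, while the groups overlap for miR-451a and miR-486a-5p.

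Of the members tested, miR-451a and miR-486a-5p were well above background on all 8 arrays, and miR-144-3p entered through the LPS arrays alone, so its call is not counted with theirs. Neither miR-451a nor miR-486a-5p passed the adjusted threshold, which 2.55% of all 470 miRNAs passed in the higher direction. Both had a positive log2 difference, beside 45.5% of all miRNAs tested, and both had an unadjusted p under 0.05 in the higher direction, beside 13.8%. For neither did the 4 LPS arrays lie above all 4 cesarean arrays, which 9.79% of all miRNAs did. By probe, 0 of their 4 probes passed in the higher direction or separated the groups, beside 2.82% and 8.91% of the 887 probes tested. Ordered by log2 difference from the top, miR-451a was number 40 of 470 and miR-486a-5p number 57, and the median over all miRNAs was -0.06. Tested as single values over the 70 possible allocations of the arrays, miR-451a gave an exact two-sided p of 0.0571 and miR-486a-5p 0.0857 (permutation test), where 0.0286 is the smallest this design can give.

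The members did not order the arrays in the same way. miR-486a-5p followed miR-451a over the 8 arrays, although the genes lie on different chromosomes (Pearson r = 0.93, exact permutation p = 0.000397; Spearman rho = 0.93, exact permutation p = 0.00223; Benjamini-Hochberg adjusted 0.000595 and 0.00335 over 3 such relations). Without the 2 arrays farthest from the median of miR-451a, LPS array 1 and cesarean array 3, r was 0.94. With each group's mean subtracted it was 0.89, so the relation was also present within the groups. All values of an array share its RNA sample, labelling and scaling.

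By the scaled signal of its longer probe, miR-144-3p, which shares its transcript with miR-451a, ran the other way among the LPS arrays. Relative to the cesarean mean, miR-451a stood at 1.55, 0.41, 1.22 and 0.78 on LPS arrays 1 to 4, and miR-144-3p at 0.99, 1.36, 1.09 and 1.11 (log2). LPS array 2 thus had the lowest miR-451a and the highest miR-144-3p of its group, and LPS array 1 the highest miR-451a and the lowest miR-144-3p. The shorter miR-144-3p probe also had its highest signal on LPS array 2, but its lowest on LPS array 4. The longer miR-144-5p probe was highest on LPS array 2 as well, and the miR-486a-3p probe was highest on LPS array 1, where miR-451a was highest. In the authors' deposited table miR-451a read 15.11, 13.52, 14.29 and 13.48 on LPS arrays 1 to 4, and miR-144-3p 5.02, 4.79, 4.77 and 4.40. There both were highest on LPS array 1 and lowest on LPS array 4, so the opposed order depended on the processing. With 4 arrays these orders are a description, and no test was made of them.

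**Figure D2:**
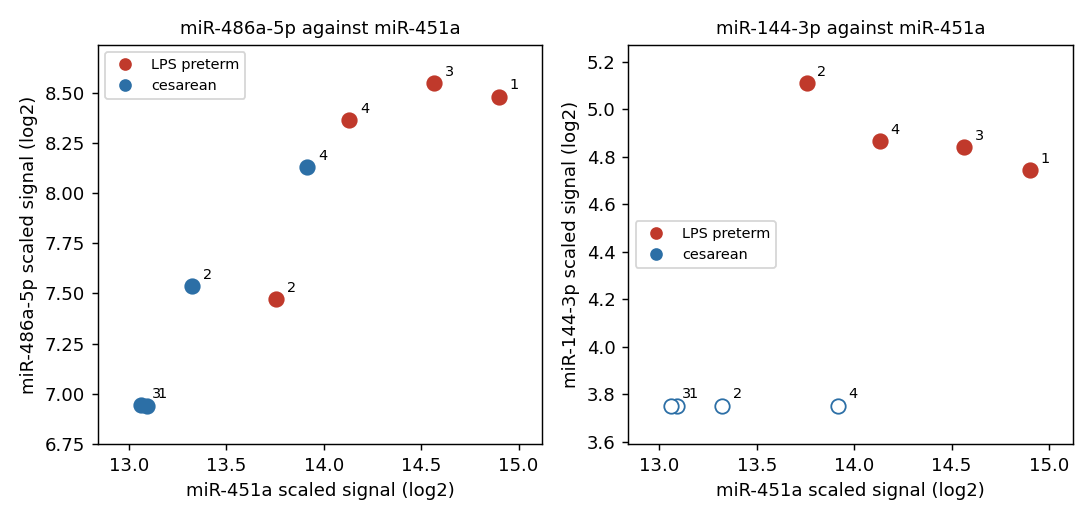
Scaled log2 signal of miR-486a-5p (left panel, y axis) and of miR-144-3p (right panel, y axis) against that of miR-451a (x axis), 1 point per array, numbered by replicate, LPS preterm in red and cesarean in blue, with open points not well above background. On the left the 8 arrays lie along a rising line (r = 0.93). On the right the 4 LPS arrays lie along a falling one, above the cesarean arrays at the floor of 3.75. The falling order is that of the longer miR-144-3p probe and is not seen in the authors' deposited table.

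Set against miR-23a-3p of the same array, a comparison in which scaling between arrays cancels, miR-451a differed by less between the groups. The log2 difference between the signals was 4.46, 3.90, 4.57 and 4.25 on LPS arrays 1 to 4 and 3.73, 3.51, 3.40 and 4.01 on cesarean arrays 1 to 4. Only LPS array 2 and cesarean array 4 crossed over. These levels mix the brightness of different probes, and only their difference between the groups is read: 0.63 ± 0.20 (SE, n = 4 each), or 1.55-fold, with an exact two-sided permutation p of 0.0571. Against miR-16-5p, which red cells also hold in quantity, the difference was 0.67 ± 0.24 (exact p = 0.0571), and for miR-486a-5p against miR-23a-3p it was 0.47 ± 0.29 (exact p = 0.171). miR-23a-3p itself averaged 10.04 ± 0.27 with LPS and 9.69 ± 0.23 at cesarean section (SD, n = 4 each; log2 difference 0.36 ± 0.24 SE, limma adjusted p = 0.366), and it also followed miR-451a over the 8 arrays (r = 0.89, exact permutation p = 0.000347; r = 0.82 without the 2 farthest arrays). miR-16-5p followed less closely (r = 0.72, exact permutation p = 0.0362, and Spearman rho = 0.71, exact permutation p = 0.0576). These permutations ran over all 8 arrays, so their p-values take in the difference between the groups. With each group's mean subtracted, r was 0.82 for miR-23a-3p and 0.67 for miR-16-5p.

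**Figure D3:**
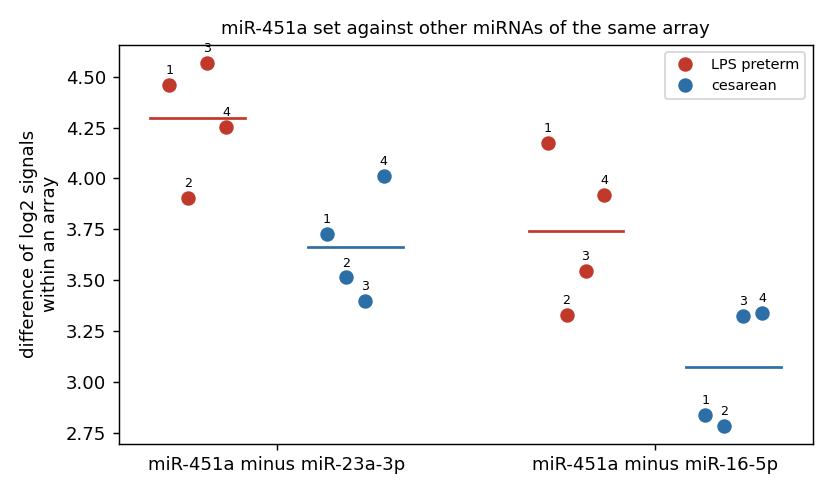
Difference between the log2 signals of miR-451a and miR-23a-3p (left) and of miR-451a and miR-16-5p (right) within each array (y axis), numbered by replicate, LPS preterm in red and cesarean in blue, with lines at the group means. In the left pair only LPS array 2 (3.90) and cesarean array 4 (4.01) cross over.

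The other miRNAs known to be abundant in red cells lay on both sides of 0. Of a list of 20, 18 were bright enough to be tested, and 0 passed limma's adjusted threshold in either direction, beside 4.89% of all miRNAs. At an unadjusted p of 0.05, 4 were higher, miR-96-5p among them, and 0 lower, beside 65 (13.8%) higher and 53 lower of all 470 miRNAs. Their median log2 difference was 0.20, with 10 of 18 positive, beside -0.06 and 45.5% for all miRNAs. The largest differences were those of miR-96-5p (1.48 ± 0.46 SE, adjusted p = 0.0814) and miR-183-5p (1.09 ± 0.32, adjusted p = 0.0702), neighbours in a cluster best known from sensory cells, and of the hypoxia-induced miR-210-3p (0.81 ± 0.27, adjusted p = 0.0906) and miR-425-5p (0.82 ± 0.29, adjusted p = 0.109). miR-96-5p was well above background on 4 LPS arrays and 2 cesarean arrays. It entered the test through the LPS arrays alone, so a difference was built into its selection. miR-16-5p differed by 0.32 ± 0.28, miR-25-3p by -0.01 ± 0.31 and miR-92a-3p by -0.18 ± 0.32, while miR-17-5p and miR-20a-5p of the miR-17-92 cluster stood at -0.72 ± 0.33 and -0.59 ± 0.31 (SE; adjusted p from 0.205 to 0.998 for these 5). miR-191-5p was well above background on 0 of 8 arrays.

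**Figure D4:**
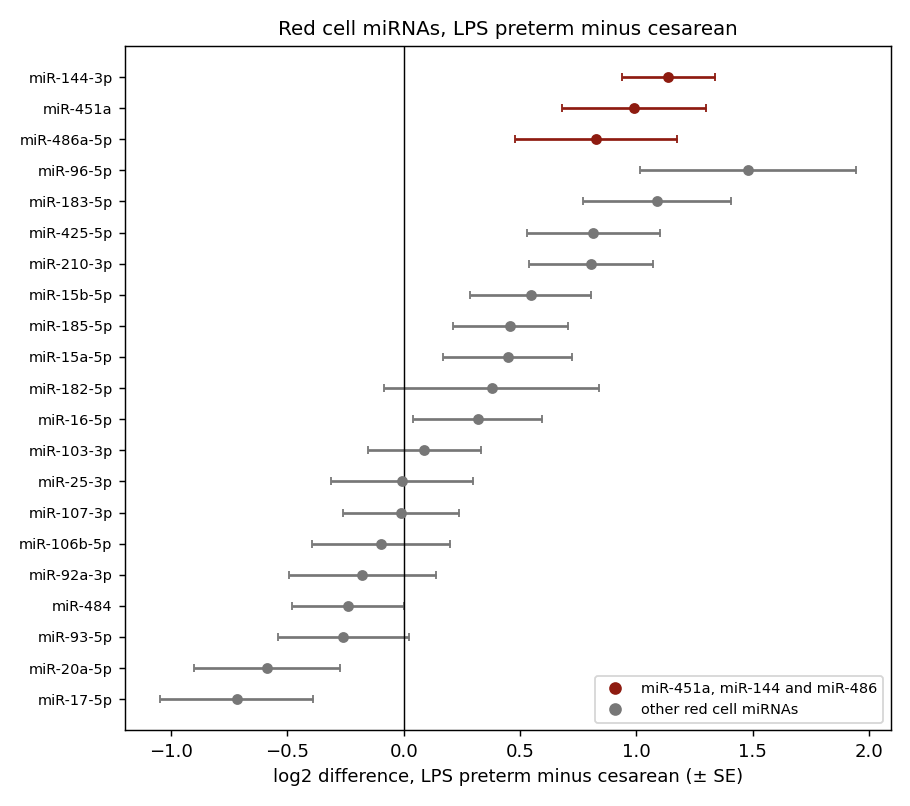
Log2 difference, LPS preterm minus cesarean (x axis), of the 3 tested members (dark red, top) and of 18 further red cell miRNAs (grey), each a point with its SE over 4 arrays a group. The members lie between 0.83 and 1.14, and the other red cell miRNAs spread to both sides of 0, from 1.48 for miR-96-5p to -0.72 for miR-17-5p. The differences and SEs of miR-144-3p, miR-96-5p and miR-484 rest partly on values at the floor. All 4 cesarean values of miR-144-3p are at the floor, so its 1.14 depends on where the floor is set.

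Of 6 miRNAs that decline as red cells mature, 5 were tested and 1 rose, beside 2.55% of all miRNAs, the inflammation-induced miR-155-5p (1.09 ± 0.24 SE, adjusted p = 0.0325). miR-222-3p, which holds back the Kit receptor in red cell precursors, differed by 0.78 ± 0.27 (adjusted p = 0.104), miR-24-3p by 0.23 ± 0.26 (adjusted p = 0.625), miR-221-3p by 0.20 ± 0.29 (adjusted p = 0.721) and miR-223-3p, known from neutrophils, by 0.09 ± 0.25 (adjusted p = 0.874). Among white cell miRNAs, 2 of 5 tested rose, miR-155-5p and miR-142a-3p (1.23 ± 0.26 SE, adjusted p = 0.0325). The other 3 did not pass: miR-146a-5p, which damps Toll-like receptor signalling, differed by 0.79 ± 0.26 (adjusted p = 0.0906), miR-342-3p by -0.45 ± 0.30 (adjusted p = 0.367), and miR-223-3p as given above. The calls of miR-155-5p and miR-142a-3p were lost without scaling, with spike-in scaling and with slide columns blocked. Under these settings 0 of all 470 miRNAs passed in the higher direction. At cesarean section miR-142a-3p was near the floor of 3.75 (4.26, 4.10, 3.75 and 4.11 on arrays 1 to 4). Among the LPS arrays miR-142a-3p was highest on array 2 (5.73) and array 3 (5.54), against 4.88 and 4.98 on arrays 1 and 4. This is also the split of miR-144-5p. The summed signal of the 7 white cell miRNAs ran from 9.65 to 10.21 on LPS arrays and from 9.70 to 9.97 on cesarean arrays (log2), with 5 to 7 and 4 to 6 of them well above background. Linear signals were summed, so the sum mostly follows the brightest, miR-223-3p (mean 9.18 with LPS and 9.09 at cesarean section). Taken singly, 3 of the 5 tested had all LPS arrays above all cesarean arrays, beside 9.79% of all miRNAs. The endothelial and platelet miRNA miR-126a-3p differed by -0.09 ± 0.30 (adjusted p = 0.896), and miR-126a-5p was well above background on 1 of 8 arrays.

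Muscle and liver miRNAs differed widely among the LPS arrays, and miR-486 is made in muscle too. The summed signal of the 6 striated muscle miRNAs on the array was 9.98, 7.38, 10.87 and 7.60 on LPS arrays 1 to 4 and 8.26, 9.22, 8.65 and 8.67 on cesarean arrays 1 to 4 (log2), with 4 to 5 and 4 of them well above background and the heart miRNA miR-208b-3p on 0 of 8 arrays. Of the muscle miRNAs 4 were tested and 0 passed in either direction, beside 4.89% of all miRNAs. The 4 log2 differences were 0.35 ± 0.90 for miR-206-3p, 0.29 ± 0.69 for miR-1a-3p, 0.23 ± 0.75 for miR-133a-3p and 0.20 ± 0.72 for miR-133b-3p (SE, limma adjusted p from 0.851 to 0.901). miR-122-5p of the liver differed by 2.30 ± 1.07 (SE, limma adjusted p = 0.211). It was well above background on 4 LPS arrays and 2 cesarean arrays, and the other cesarean values were at the floor. miR-122-5p thus entered the test through the LPS arrays alone, so a difference was built into its selection. The liver list, miR-122-5p with its other arm miR-122-3p, which was well above background on 0 of 8 arrays, summed to 8.34, 5.54, 9.83 and 5.92 with LPS and to between 4.75, where neither arm rose over the floor, and 7.16 at cesarean section. The LPS arrays with the highest muscle and liver sums, 1 and 3, were also those with the highest miR-451a and those on which miR-486a-3p was measured. LPS array 4 had a low muscle sum and a miR-486a-5p signal of 8.36, near that of arrays 1 and 3. Cesarean array 4, the highest of its group for miR-451a and miR-486a-5p, had a muscle sum between those of cesarean arrays 1 and 2. Cesarean array 2, with the highest muscle and liver sums of its group, came next after it for miR-451a (13.32) and miR-486a-5p (7.54). The part of white cell, muscle or liver material in the members' differences was not tested.

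Among all tested miRNAs outside the members, those most like miR-451a over the 8 arrays by Pearson correlation of log2 signals were miR-154-5p (r = 0.95), miR-434-3p (0.94), miR-511-3p (0.93, well above background on 6 arrays), miR-429-3p (0.92) and miR-200b-3p (0.91). They were picked as the highest of many, share the arrays' RNA and scaling, and are given with no test. Of these, miR-200b-3p, an epithelial miRNA, rose with LPS (1.08 ± 0.25 SE, adjusted p = 0.0410), and its relative miR-429-3p differed by 0.91 ± 0.23 (adjusted p = 0.0513). The call of miR-200b-3p was lost without scaling, with spike-in scaling and with slide columns blocked. miR-154-5p and miR-434-3p of the imprinted Dlk1-Dio3 cluster differed by 0.61 ± 0.23 (adjusted p = 0.135) and 0.98 ± 0.26 (adjusted p = 0.0567). miR-486a-5p would stand at place 3 in this order and miR-144-3p, with 4 arrays at the floor, far lower (r = 0.70).

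One slide carried all 8 arrays, and its first row held LPS and its second cesarean samples, so that row and group cannot be told apart. Each slide column held 1 array of each group. Within columns 1 to 4, LPS exceeded cesarean by 1.81, 0.43, 1.50 and 0.22 for miR-451a, by 1.54, -0.06, 1.60 and 0.23 for miR-486a-5p, and by 0.99, 1.36, 1.09 and 1.11 for miR-144-3p (log2). Between 403 and 551 miRNAs were well above background on an array, and no spot was saturated. The number of arrays limits the precision of every comparison here.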

How the data were processed

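Single-colour (Cy3) Agilent miRNA arrays were scanned, and spot intensity values were deposited by the authors as background-subtracted signals of Agilent Feature Extraction 10.7.1.1, per the file headers, without normalization between arrays; the submitters' processing notes name version 9.1. The authors' deposited table holds log2 values normalized between arrays by a method not given in the sources used here, and served as an alternative. The labels speak of amplified cRNA made from 0.5 μg of RNA, so how the miRNAs were labelled is not clear.

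Control spots and spots with outlier marks (from 3.00% to 3.48% of miRNA spots per array) were left out and spots averaged per probe. A share of 0.5 or more of its spots marked well above background made a probe so. Signals were scaled by the 75th percentile over 618 probes detected on all 8 arrays, raised to a floor of 13.5 and put on the log2 scale. The brightest probe stood for a miRNA. Tested were 470 of 1881 miRNAs, and separately 887 probes, detected on at least 3 of 4 arrays of a group, with limma 3.58.1 in R 4.3.3 with the data.table package (version 1.17.8), Benjamini-Hochberg adjustment and a threshold of 0.05. A bound uses, for each array, the lowest signal of any probe well above background, or the probe's own where that was higher. Single values were tested by exact permutation. The code was tested on simulated data. Python 3.11.15, numpy 2.4.6, pandas 2.3.3, scipy 1.17.1 and matplotlib 3.10.9 were also used.

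The members, the 6 comparison lists and the alternatives were chosen with earlier results of these data known. Named are the members, miR-23a-3p, miR-16-5p, the 5 miRNAs most like miR-451a, and of each list those past the threshold and up to 4 more with the smallest p; further red cell list members are named after their values were seen. RefSeq sequences (GRCm38.p6) were matched by name for 3 of the 5 members.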

Additional observations from a re-analysis of the deposited data

Results flagged for a closer look

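miR-486a-5p on LPS array 2 stood at 7.47 (log2), so far below the other LPS arrays, at 8.36 to 8.55, that it passed Dixon's test for an outlying value in a group of 4. Chance marks about 1 in 20 such groups, and 7 were examined. Without this array the difference of miR-486a-5p was 1.08, and it did not pass limma's test either (adjusted p = 0.123). In the scaled signals miR-451a was also lowest of the LPS group on this array (13.76), and miR-144-3p and miR-144-5p were highest on it. In the authors' deposited table the lowest LPS value of miR-451a was on array 4 (13.48, against 13.52 on array 2). There miR-144-3p was highest on array 1 (5.02, against 4.79 on array 2).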

How the results depend on the processing

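The differences of miR-451a, miR-486a-5p and miR-144-3p were positive under every alternative run. miR-451a ran from 0.80 to 1.18 and miR-486a-5p from 0.66 to 1.08 over 22 alternatives each, and neither passed a threshold of 0.05 in any of them. miR-144-3p lost its call in 9 of 21: at 1.29 without scaling, 1.32 with scaling to the spike-in probes, 0.56 with normexp, 0.14 with a floor 2 times as high, 1.14 with the slide column as a block, and in 4 of the 8 fits that leave out an array (range 1.06 to 1.19). It was 2.34 in the authors' deposited table and 2.77 with the total gene signal that the scanner software gives. The cause was not tested, apart from the floor, which sets the cesarean value. The difference of miR-451a against miR-23a-3p ran from 0.54 to 0.76 over its alternatives and passed in none; with an array left out the exact test cannot reach 0.05.
The number of miRNAs past the threshold, 23, was 1 without scaling, 1 with spike-in scaling, 13 with the percentile over all probes, 36 with quantile normalization, 9 with normexp, 6 with the total per miRNA, 2 without a filter, 15 with those detected on all arrays, 1 with the slide column as a block, and 3 to 79 with an array left out. Over all miRNAs the median difference moved to -0.20 without scaling, from -0.06 with it. The labels pair no samples, so arrays were paired by slide column alone. Dim probes (miR-144-5p, miR-486a-3p) lie near background, which limits what can be read of them.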
